A study of Mus musculus with 72 samples.

Results

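Which genes still respond to a peptide when an antagonist of its receptor is present was examined in a mouse melanoma line. The data are the 3 libraries of 1014-Grpr cells given 10 nM gastrin-releasing peptide (GRP) together with 1 µM RC-3095 (RC), set against the 3 mock libraries of the same cells, 6 libraries of the 72 in the series. The members are chosen by their labels alone. The series is bulk RNA-seq of mouse melanoma lines with and without the GRP receptor, treated with mock, GRP, RC or GRP+RC. The 1014-Grpr line comes from a melanoma of a female mouse with the label Tyr::NRASQ61K/°;CMV::Grpr/tGFP: the melanocyte promoter Tyr drives mutant NRAS, and a transfected plasmid drives the receptor from the viral CMV promoter. Its control, 1014-Ctrl, has the label Tyr::NRASQ61K/°;CMV::tGFP and carries the plasmid without the receptor. Whether the transfected line is 1 clone or a pool is not given in the sources used here. Serum was lowered to 0.5% for 18 h before treatment, the treatments lasted 4 h, and mock cells received 0.1% DMSO. No DMSO value is recorded for the cells given GRP, RC or GRP+RC. The same mock libraries serve each treatment of 1014-Grpr, and the RC and GRP libraries of the line are used below only to place the GRP+RC values.

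GRP is a bombesin-like peptide, and its receptor GRPR is a G-protein-coupled receptor that signals mainly through Gq, phospholipase C, calcium and protein kinase C. Such signals switch on immediate early genes (the FOS, JUN, EGR and NR4A transcription factors), followed by secreted proteins and by feedback inhibitors such as DUSP phosphatases and RGS proteins, which shorten the life of active G proteins. RC-3095 is a peptide antagonist that competes with GRP for the receptor.

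The 6 libraries held between 21502000 and 31789500 counts, and the 12 libraries of 1014-Grpr between 19512900 and 46862100. In all 12, Xist was between 704 and 1308 counts scaled by the library total (CPM) and the Y-linked gene Ddx3y had no count, as in female cells. In the gene results further below, CPM is also scaled by the normalization factors of the fit, except where the processing section says otherwise. All 8 melanocyte markers were counted, with Sox10 between 1083 and 1190 CPM, and their sum ran from 33595 to 39192 CPM in mock and from 32340 to 37619 CPM in GRP+RC. The 4 keratinocyte and 3 endothelial markers were all under 1 CPM in the 12 libraries. The sum of 4 immune markers was 2.09 to 3.27 CPM in mock and 2.60 to 4.54 CPM in GRP+RC, nearly all of it Cd68, with Cd3e at 0, and that of 5 fibroblast markers was 3.91 to 4.72 and 4.11 to 5.44 CPM, with Lum at 0. The part of these small sums in the results was not tested. The replicate number was a block in the tests by the rule that set this comparison. Same-numbered libraries of different treatments deviated together from their group means (correlation over genes between 0.386 and 0.537 in the 18 same-numbered pairs). Nothing in the labels says that replicates were separate cultures, and p-values then measure the spread between these libraries only. In bulk samples, fewer cells that express a gene and less of its RNA per cell cannot be told apart.

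With the antagonist present, 71 genes were higher and 14 lower than in mock among 13730 genes tested (0.517% and 0.102%, 0.619% in all). These are the genes called from here on, with an edgeR quasi-likelihood p, adjusted by Benjamini-Hochberg, of less than 0.05 and a log2 fold change beyond 1 in either direction. Rgs16, Serpinb2, Stc1, Nr4a3, Fsd2, Ccn1 and Tnc were among the genes that rose furthest at a mean of at least 1 CPM. They include a G-protein inhibitor (Rgs16), a protease inhibitor (Serpinb2), a hormone (Stc1), a nuclear receptor (Nr4a3) and matrix proteins (Ccn1 and Tnc). By the adjusted p alone, 1389 genes were higher and 990 lower (10.1% and 7.21%, 17.3% in all). Most of these differences were small, and 719 of the higher and 582 of the lower genes moved by less than 0.25 on the log2 scale. Of the 71 genes, 70 were higher in all 3 same-numbered pairs, and in 64 every GRP+RC library lay above every mock library, beside 9.02% of all genes tested. All 14 lower genes lay below mock in every library, beside 7.17% of all genes. The same libraries made the calls, with the replicate number as a block, so these counts are no separate evidence. No share over all genes is given for the pairs. Without the replicate block, 21 genes were called higher and 5 lower, and without the libraries numbered 2, 35 and 5.

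**Figure D1:**
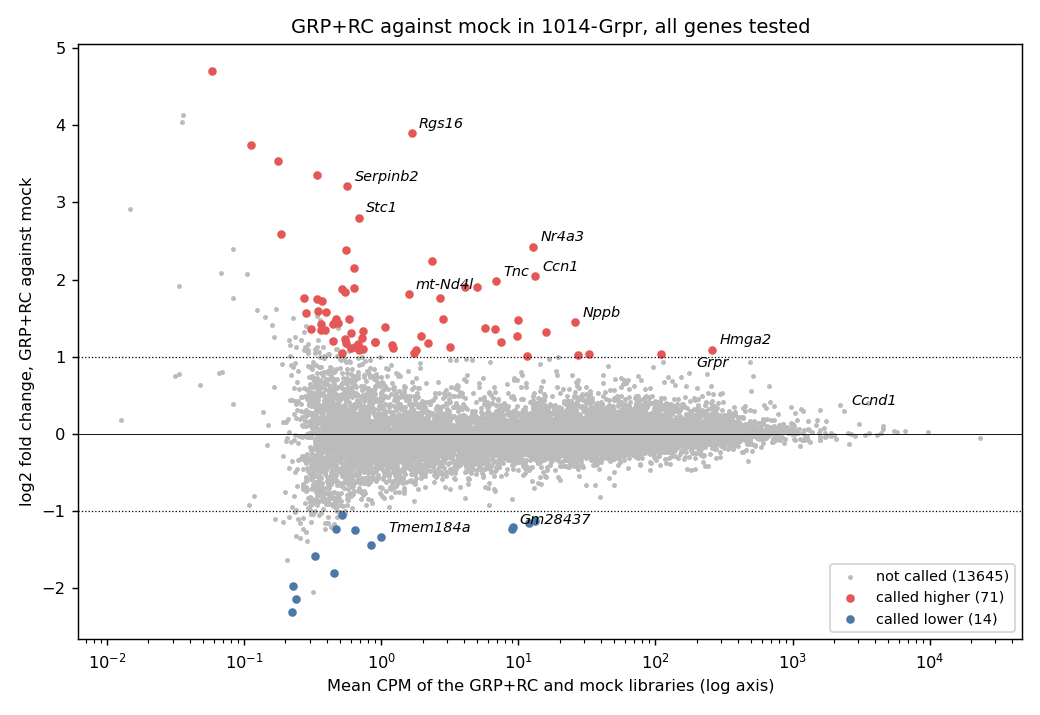
Each point is 1 of the 13730 genes tested, with the mean CPM of the GRP+RC and mock libraries on a log axis against the log2 fold change of GRP+RC against mock, and dotted lines mark 1 and -1. The 71 genes called higher reach from genes of a few counts at the left to Hmga2 at the right, and 10 of the 14 called lower lie at 1 CPM or less.

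At the fold threshold, the smallest rise that was called was that of mt-Co3 (log2 fold change 1.01), and the largest that missed only the fold was that of Rasef (0.99). On the lower side these were Gm37249 (-1.05) and Gm11266 (-0.94).

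Rgs16, which speeds the inactivation of Gq and Gi proteins, rose most among genes of at least 1 CPM. Its level was 0.138, 0.369 and 0.0895 CPM in mock and 0.881, 5.48 and 3.03 CPM in GRP+RC. Every GRP+RC library was above every mock library, with a wide spread among the GRP+RC libraries, of which the first was the lowest. The log2 fold change was 3.90 ± 0.29 (± SE, n = 3 per group, here and below; edgeR adjusted p = 6.95e-08), and without the replicate block the adjusted p was 0.0762. The mock libraries held 4, 12 and 2 counts, so the base of this fold is imprecise. Rgs16 lies on chromosome 1 (153740349 to 153745468, plus strand, GRCm38), and exons of Gm28513 overlap it on the other strand.

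Other genes that restrain receptors moved less. Of the 15 tested among 22 RGS and receptor desensitization genes, Rgs16 was the only one called, beside 0.619% of all genes tested. The median log2 fold change was 0.04, beside -0.01 over all genes tested. Rgs2, which acts on Gq, was 2.66, 3.66 and 2.91 CPM in mock and 5.38, 6.35 and 6.44 CPM in GRP+RC. These groups did not overlap, but the log2 fold change stayed under the threshold (log2 fold change 0.96 ± 0.13, edgeR adjusted p = 7.01e-05). Rgs3 was closer still to mock (log2 fold change 0.47, edgeR adjusted p = 0.00209).

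Grpr itself, transcribed from the plasmid, was 129, 110 and 143 CPM in mock and 191, 208 and 269 CPM in GRP+RC. The GRP+RC libraries were all above the mock libraries. The log2 fold change was 0.79 ± 0.09 (edgeR adjusted p = 4.20e-06), under the fold threshold. Of the other bombesin receptors and ligands, the ligand Nmb was the only one tested (log2 fold change 0.14, edgeR adjusted p = 0.752).

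Of the genes called higher at a mean of at least 1 CPM with a RefSeq entry, the promoters of the 4 that rose most follow. These promoters let a reader look for shared letters at the starts of genes that rose together. They are printed 5′ to 3′ from RefSeq (GRCm38.p6), in lower case, with matches in capitals to any of 5 motifs: AP-1 (TGANTCA), the cAMP response element or CRE (TGACGTCA), its core (TGACG), the TEAD motif (GGAATG) and the CArG box, each searched on both strands. A CRE also holds its core. Each window starts 250 bases before the RefSeq start and is shown up to the first annotated start.
Rgs16, chr1:153740103-153740348, plus strand: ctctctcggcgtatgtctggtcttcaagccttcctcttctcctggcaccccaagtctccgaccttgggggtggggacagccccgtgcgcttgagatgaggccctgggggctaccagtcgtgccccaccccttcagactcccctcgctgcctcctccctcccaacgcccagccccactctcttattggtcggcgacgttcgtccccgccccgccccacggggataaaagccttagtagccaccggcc
Serpinb2, chr1:107511173-107511422, plus strand: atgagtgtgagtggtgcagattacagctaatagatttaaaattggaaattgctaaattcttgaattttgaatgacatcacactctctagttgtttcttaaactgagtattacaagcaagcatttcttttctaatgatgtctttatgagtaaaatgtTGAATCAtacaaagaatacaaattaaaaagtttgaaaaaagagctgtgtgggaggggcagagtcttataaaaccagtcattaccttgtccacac
Nr4a3, chr4:48045055-48045152, plus strand: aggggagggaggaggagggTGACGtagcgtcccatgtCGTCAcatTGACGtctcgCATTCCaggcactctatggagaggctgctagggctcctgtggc
Fsd2, chr7:81566982-81567231, minus strand: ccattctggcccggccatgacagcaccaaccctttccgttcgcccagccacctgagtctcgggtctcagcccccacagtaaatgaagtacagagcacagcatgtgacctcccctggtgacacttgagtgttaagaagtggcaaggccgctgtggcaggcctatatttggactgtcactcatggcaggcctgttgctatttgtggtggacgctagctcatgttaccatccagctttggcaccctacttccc
The Serpinb2 window held 1 AP-1 match, whose first base lay 94 bases before the start. The Nr4a3 window held CRE cores at 231, 213 and 205 bases and a TEAD match at 195 bases, with another core at 147 bases past the stretch shown. No match in the windows of Rgs16 and Fsd2 says only that these letters are not there. Of the 18 genes called higher that the naming rule picked, 12 had an entry, and among these AP-1 matched in 3 (Serpinb2, Plaur and Lif), TEAD in 3 (Nr4a3, Ccn1 and Nppb), the CRE core in 2 (Nr4a3 and Ccn1), and the CRE and the CArG box in 0. Over 32851 promoters of the same 250 bases, AP-1 matched in 6.75%, TEAD in 12.6%, the CRE core in 17.8%, the CRE in 1.55% and the CArG box in 1.47%. A match is a description of letters, not a bound site.

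Secreted and invasion genes held the largest number of called genes of any list. The lists were written with earlier results of these data known, so these counts and medians are no separate evidence. Of the 23 tested among 30, 9 were called higher and 0 lower, beside 0.517% and 0.102% of all genes. The median log2 fold change was 1.26, beside -0.01 over all genes. The called members were Serpinb2, Stc1, Inhba, Tnc, Plaur, Lif, Il11, Nppb and 1 other gene. The median falls on Ereg, a growth factor gene under 1 CPM in both groups that did not pass (log2 fold change 1.26, edgeR adjusted p = 0.129). By the adjusted p alone 14 members were higher and 1 lower, beside 10.1% and 7.21% of all genes.

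Serpinb2, an inhibitor of plasminogen activators, was near the limit of counting in mock, with 1, 8 and 0 counts, and had 15, 16 and 42 counts in GRP+RC. Its libraries did not overlap between the groups (log2 fold change 3.21 ± 0.58, edgeR adjusted p = 0.00079; 0.135 without the block), and its exons overlap those of Serpinb10 on the same strand, so that reads could be split between them. Plaur, the receptor of urokinase plasminogen activator, was tight within groups, at 1.66, 1.79 and 1.70 CPM in mock and 6.59, 6.98 and 5.77 CPM in GRP+RC. Its log2 fold change was 1.91 ± 0.18 (edgeR adjusted p = 8.49e-07), and it was called under all 9 alternatives run for single genes, as were Nr4a3, Lif, Fosl1, Egr3, Nppb and Chst11. So were Tnfaip2, Hmga2, mt-Atp6 and Gm28437, although the calls of mt-Atp6 and Gm28437 are uncertain for the reasons given below.

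Tnc, the matrix protein tenascin C, measured 2.49, 3.76 and 1.75 CPM in mock and 6.40, 12.5 and 14.2 CPM in GRP+RC. The lowest GRP+RC library was above the highest mock library. The log2 fold change was 1.98 ± 0.24 (edgeR adjusted p = 2.00e-05), with an adjusted p of 0.0831 without the block. Chst11, which sulfates chondroitin chains, was 2.49, 4.03 and 2.95 CPM in mock and 7.47, 9.65 and 7.73 CPM in GRP+RC, again without overlap (log2 fold change 1.37 ± 0.18, edgeR adjusted p = 3.13e-05).

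Among cytokines and hormones, Lif, a cytokine of the interleukin-6 family, was 2.18, 2.09 and 2.15 CPM in mock and 7.10, 8.32 and 8.35 CPM in GRP+RC. The mock libraries were nearly alike and the GRP+RC libraries far above them (log2 fold change 1.90 ± 0.25, edgeR adjusted p = 3.74e-05). Nppb, a natriuretic peptide, was 15.9, 13.1 and 12.7 CPM in mock and 34.8, 41.2 and 38.2 CPM in GRP+RC, without overlap (log2 fold change 1.45 ± 0.13, edgeR adjusted p = 3.97e-07). Pthlh, the parathyroid hormone-related peptide, was 1.14, 2.19 and 1.16 CPM in mock and 2.69, 6.06 and 3.82 CPM in GRP+RC, without overlap. The second library was the highest in both groups, and the log2 fold change was 1.49 ± 0.16 (edgeR adjusted p = 4.51e-06; 0.177 without the block). Stc1, the hormone stanniocalcin, was low, with 3, 5 and 6 counts in mock and 25, 29 and 29 in GRP+RC (log2 fold change 2.80 ± 0.36, edgeR adjusted p = 3.25e-05).

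**Figure D2:**
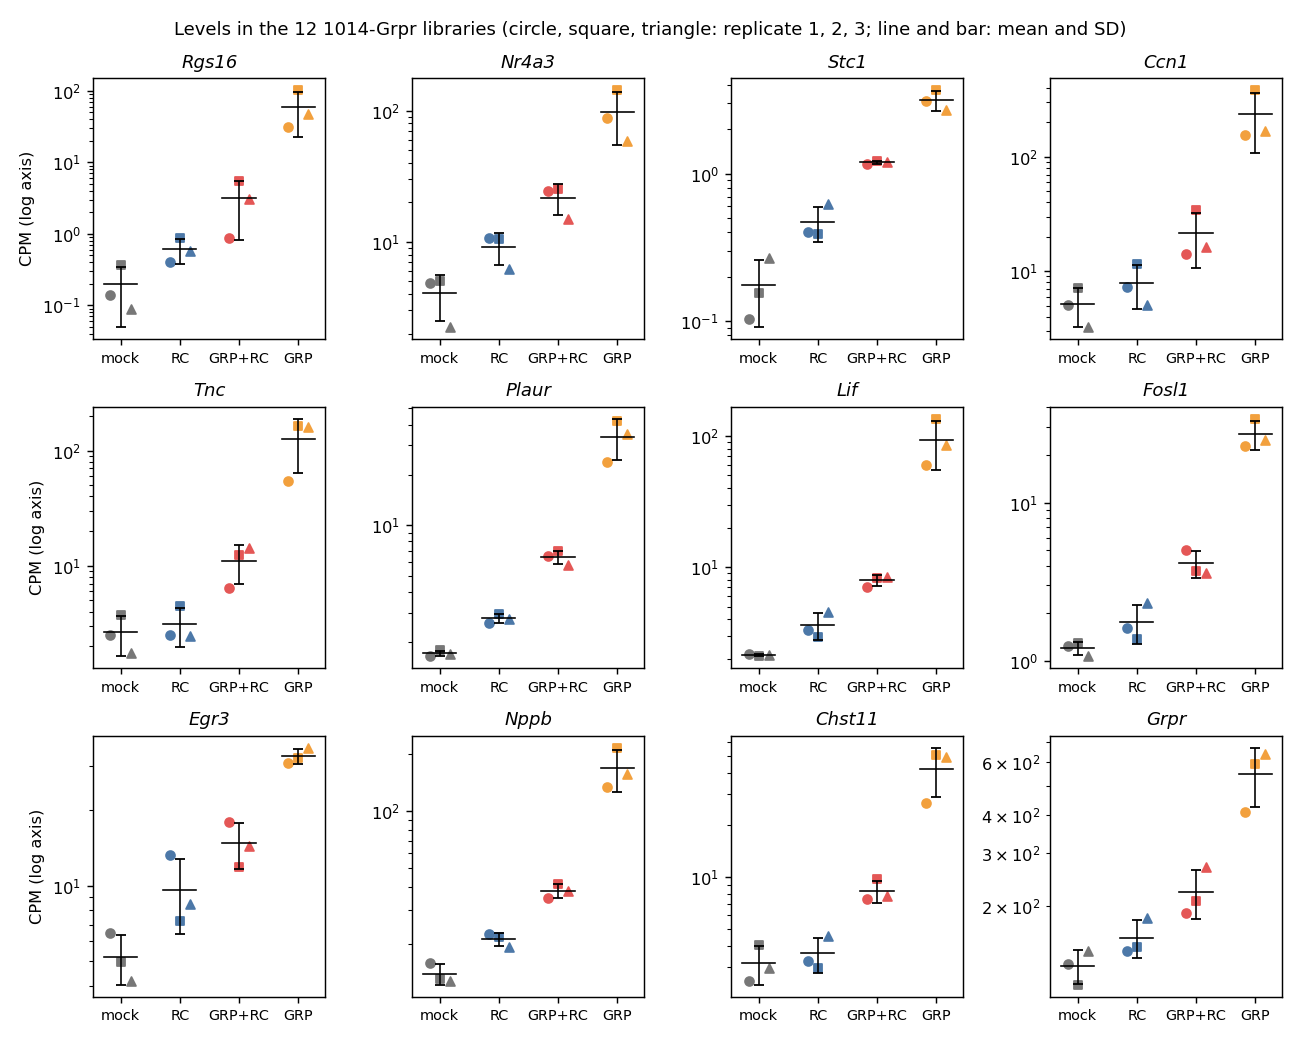
CPM on a log axis in the 12 libraries of 1014-Grpr for 12 genes, with circles, squares and triangles for replicates 1, 2 and 3, a line for the mean and a bar for the SD of each treatment. In all 12 genes every GRP+RC library lies above every mock library and below every GRP library.

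The immediate early genes rose broadly and mostly by small amounts. Of the 27 tested among 29, 4 were called higher and 0 lower, beside 0.517% and 0.102% of all genes. By the adjusted p alone 20 were higher and 0 lower, beside 10.1% and 7.21% of all genes. The median log2 fold change was 0.47. Nr4a3, an orphan nuclear receptor, was 4.87, 5.02 and 2.24 CPM in mock and 24.6, 25.3 and 15.1 CPM in GRP+RC. The third library was the lowest in both groups, and the groups did not overlap. The log2 fold change was 2.43 ± 0.14 (SE, n = 3 per group; edgeR adjusted p = 3.39e-09), and the adjusted p was 0.0164 without the block. Nr4a3 lies on chromosome 4 (48045153 to 48086447, plus strand, GRCm38).

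Fosl1, a subunit of the AP-1 factor, was 1.24, 1.29 and 1.07 CPM in mock and 5.06, 3.72 and 3.61 CPM in GRP+RC (log2 fold change 1.76 ± 0.24, edgeR adjusted p = 5.22e-05). Exons of Ccdc85b overlap it on the other strand. Egr3, a zinc finger factor, was 6.46, 4.96 and 4.16 CPM in mock and 18.0, 11.9 and 14.4 CPM in GRP+RC (log2 fold change 1.48 ± 0.15, edgeR adjusted p = 3.10e-06). Neither gene overlapped between the groups. Egr2 was called as well, at 0.830, 0.677 and 2.01 CPM in mock and 2.83, 1.59 and 3.74 CPM in GRP+RC, but its groups overlapped (log2 fold change 1.27 ± 0.41, edgeR adjusted p = 0.0369).

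The best known members of the class, chosen for naming after their values were seen, moved less. Fos was 40.1, 34.7 and 20.5 CPM in mock and 59.3, 62.8 and 53.2 CPM in GRP+RC, without overlap (log2 fold change 0.88, edgeR adjusted p = 0.000347). Egr1 overlapped between the groups (log2 fold change 0.70, edgeR adjusted p = 0.0257). Jun (log2 fold change 0.30, edgeR adjusted p = 0.000128) and Myc (log2 fold change 0.47, edgeR adjusted p = 1.51e-05) were higher by the adjusted p alone. Fosb (log2 fold change 0.67, edgeR adjusted p = 0.108) and Dusp1 (log2 fold change 0.05, edgeR adjusted p = 0.77) did not pass.

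Ccn1, a matrix protein and a direct target of YAP, was the only called gene of the 20 tested among 25 YAP/TAZ targets, beside 0.619% of all genes. It was 5.08, 7.08 and 3.27 CPM in mock and 14.1, 34.0 and 16.4 CPM in GRP+RC, and the second library was the highest in both groups. The groups did not overlap, and the log2 fold change was 2.05 ± 0.13 (SE, n = 3 per group; edgeR adjusted p = 1.06e-08), with an adjusted p of 0.0741 without the block. By the adjusted p alone the list had 6 genes higher and 2 lower, beside 10.1% and 7.21% of all genes, and its median was 0.08. Ccn2, a close relative of Ccn1, was 16.2, 13.3 and 12.8 CPM in mock and 21.6, 29.9 and 20.5 CPM in GRP+RC (log2 fold change 0.77 ± 0.25, edgeR adjusted p = 0.0424). The other genes of the study's YAP1 score were nearer to mock, with log2 fold changes of 0.05 for Tead4 (edgeR adjusted p = 0.774), -0.08 for Lats2 (edgeR adjusted p = 0.426) and -0.15 for Crim1 (edgeR adjusted p = 0.0372). In the study's invasive score, Ccn1 and Tnc were called, and the log2 fold change was 0.26 for Axl (edgeR adjusted p = 0.0182), -0.05 for Tcf4 (edgeR adjusted p = 0.633) and -0.71 for Loxl2 (edgeR adjusted p = 0.061). Both scores were chosen by the study, and their counts are no separate evidence. Of its ER-activation genes 1 of 9 was tested, Egr3, and of its anoikis-resistance genes 0 of 6 tested passed the adjusted p.

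Of the 18 ERK feedback genes, all tested, Dusp2 was the only one called, beside 0.619% of all genes. By the adjusted p alone 9 were higher, beside 10.1% of all genes, and the median log2 fold change was 0.20. Dusp2, a nuclear phosphatase of ERK, was 0.830, 0.616 and 0.313 CPM in mock and 1.90, 1.76 and 0.997 CPM in GRP+RC, without overlap (log2 fold change 1.39 ± 0.25, edgeR adjusted p = 0.000836; 0.169 without the block). Spry2, an inhibitor of receptor tyrosine kinase signalling, was 44.5, 44.6 and 53.7 CPM in mock and 65.2, 73.4 and 95.5 CPM in GRP+RC, also without overlap and under the fold threshold (log2 fold change 0.70 ± 0.08, edgeR adjusted p = 7.06e-06). Its relative Spry4 had a log2 fold change of 0.46 (edgeR adjusted p = 5.40e-06).

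The remaining lists held no called gene. Their counts by the adjusted p alone stand beside 10.1% of all genes higher and 7.21% lower. By this measure the CREB and cAMP response genes had 4 higher and 1 lower of 12 tested (median 0.30), with the GTPase Gem at 0.69 (edgeR adjusted p = 0.00401). The NF-kappaB feedback genes had 5 higher of 11 (median 0.31), among them Nfkb2 (log2 fold change 0.49, edgeR adjusted p = 3.68e-06) and Tnfaip3 (log2 fold change 0.61, edgeR adjusted p = 0.0228). The ATF4 and ER stress genes had 4 higher and 1 lower of 13 (median 0.24), with the stress factor Atf3 just under the fold threshold (log2 fold change 0.97, edgeR adjusted p = 0.000505) and Ddit3 at 0.33 (edgeR adjusted p = 0.00581).

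Metabolic, proliferation and lineage genes were closer to mock. Of 12 cholesterol and lipid synthesis genes, 5 were higher by the adjusted p alone (median 0.11), among them the sterol enzyme Sqle (log2 fold change 0.21, edgeR adjusted p = 0.00743). Of 17 cell cycle genes, 1 was higher and 3 were lower (median -0.10), with Ccnd1 at 0.30 (edgeR adjusted p = 0.000127) and Mki67 at -0.22 (edgeR adjusted p = 0.000572). The 12 interferon-stimulated genes had 2 lower (median -0.07), the 9 calcineurin and NFAT genes tested had 2 higher (median 0.04), and the 11 Gq and PKC genes tested had 1 higher and 1 lower (median 0.00). Of the 13 melanocyte genes tested, 2 were higher (median -0.02), and the lineage factor Mitf had a log2 fold change of -0.07 (edgeR adjusted p = 0.34). In lists this short, counts of 1 or 2 genes do not stand apart from the shares over all genes.

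**Figure D3:**
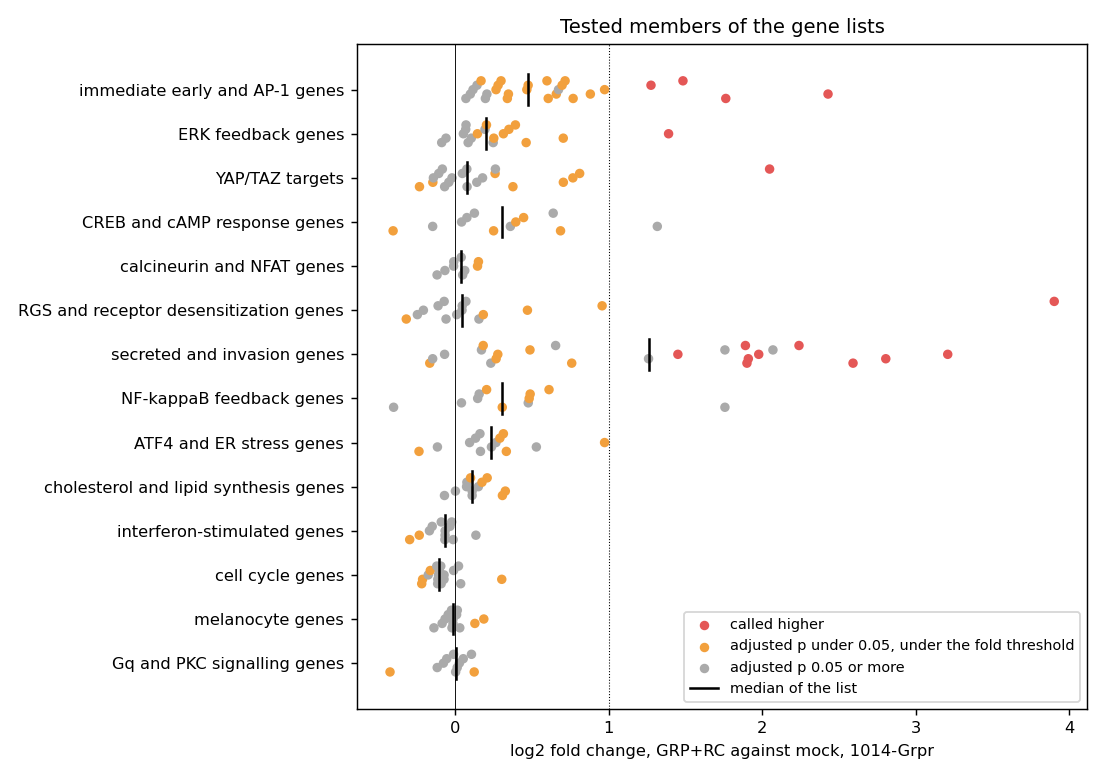
Log2 fold change of GRP+RC against mock for the tested members of 14 gene lists, each point a gene, with the median of each list as a bar and a dotted line at 1. The secreted and invasion genes have 9 called members and a median of 1.26, while the medians of the other lists lie between -0.10 and 0.47. The lists were written with earlier results of these data known.

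Other called genes outside these lists were chosen for naming after their values were seen. Hmga2, a chromatin protein of embryonic and tumour cells, was 163, 131 and 203 CPM in mock and 321, 317 and 417 CPM in GRP+RC (log2 fold change 1.09 ± 0.07, edgeR adjusted p = 1.57e-08). Tnfrsf12a, the receptor of the cytokine TWEAK, was 72.4, 59.3 and 82.3 CPM in mock and 126, 143 and 172 CPM in GRP+RC (log2 fold change 1.04 ± 0.08, edgeR adjusted p = 1.47e-07). Sdc1, a proteoglycan of the cell surface, was 19.1, 19.7 and 24.7 CPM in mock and 39.1, 35.5 and 57.1 CPM in GRP+RC (log2 fold change 1.04 ± 0.06, edgeR adjusted p = 3.39e-09). In all 3 genes every GRP+RC library was above every mock library. Sphk1, which makes sphingosine 1-phosphate, rose by 1.27 on the log2 scale (edgeR adjusted p = 4.02e-06), the kinase gene Sgk1 by 1.19 (edgeR adjusted p = 0.000122) and Tnfaip2 by 1.33 (edgeR adjusted p = 6.95e-08). Exons on the other strand overlap Hmga2, Sphk1 and Tnfaip2. The gene that overlaps Sphk1, Gm29292, was itself called higher (log2 fold change 1.77, edgeR adjusted p = 0.0293). Whether these calls are separate was not tested. Fsd2, a gene of the named set, was 0.138, 0.185 and 0.403 CPM in mock and 0.464, 0.919 and 1.70 CPM in GRP+RC, without overlap (log2 fold change 2.15 ± 0.46, edgeR adjusted p = 0.00314; 0.101 without the block).

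Part of the called genes stood near the limit of counting, where 3 counts correspond to 0.0640 to 0.154 CPM. Of the 71, 38 had a mean of at least 1 CPM in mock or GRP+RC, 19 were predicted genes or pseudogenes by name, and 4 had at most 3 counts in every mock library. Of these 4, Ptchd1 had 0, 0 and 0 counts in mock and 3, 2 and 3 in GRP+RC, so both groups were at or under the floor of 3 counts per library and no fold is given. Gdnf, a neurotrophic factor, had 1, 0 and 0 counts in mock and 2, 5 and 8 in GRP+RC. For the cytokine gene Tnfsf18 the counts were 2, 0 and 0 and 5, 11 and 7, and for Inhba, a subunit of activin, 2, 0 and 2 and 8, 5 and 9. All 4 were chosen after their values were seen, apart from Inhba.

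Few genes with names of their own were called lower. Tmem184a, a membrane protein, was 1.38, 1.45 and 1.48 CPM in mock and 0.510, 0.627 and 0.540 CPM in GRP+RC, without overlap (log2 fold change -1.34 ± 0.27, edgeR adjusted p = 0.00192). Its exons overlap those of Gm26938 on the same strand and of Mafk on the other. Of the 14 genes called lower, 12 were predicted genes by name, and Ly6g5b was the other exception, at a mean of 0.491 CPM in mock and 0.164 CPM in GRP+RC.

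Among the 12, 5 lie side by side on chromosome 1 between 24612407 and 24616197 (minus strand, GRCm38) and are annotated as unprocessed pseudogenes: Gm10222, Gm28437, Gm10925, Gm28661 and Gm29216. Gm28437 was 12.7, 14.2 and 11.1 CPM in mock and 7.24, 4.72 and 4.36 CPM in GRP+RC (log2 fold change -1.24 ± 0.12, edgeR adjusted p = 1.12e-06), and the other 4 had log2 fold changes between -1.13 and -1.43. In the same libraries mt-Nd4l, mt-Atp6 and mt-Co3 were called higher. Of these mt-Atp6, a subunit of ATP synthase, was 3.42, 4.03 and 3.89 CPM in mock and 7.28, 11.5 and 10.3 CPM in GRP+RC (log2 fold change 1.36 ± 0.13, edgeR adjusted p = 1.66e-06), and mt-Nd4l had a log2 fold change of 1.81 ± 0.24 (edgeR adjusted p = 3.63e-05). Another ATP synthase gene, mt-Atp8, went the other way, lower in all 3 pairs and by the adjusted p alone (log2 fold change -0.87, edgeR adjusted p = 0.0305). Its exon overlaps that of mt-Atp6 on the same strand, as do those of mt-Atp6 and mt-Co3 and of mt-Nd4l and mt-Nd4, so that reads could be split within each pair. The far more counted mt-Co1 did not pass (mean 9729 CPM in mock and 9852 CPM in GRP+RC, edgeR adjusted p = 0.714). Nuclear copies of mitochondrial DNA can share reads with the mitochondrial genes, and how such reads were counted is not given in the sources used here, so these 8 calls are uncertain.

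Against RC alone, the comparison asks what GRP adds to the antagonist. Of 13730 genes, 29 were higher in GRP+RC than in RC and 3 lower (0.211% and 0.0218%, 0.233% in all). Tnc was 2.52, 4.47 and 2.44 CPM in RC, below each GRP+RC library (log2 fold change 1.85 ± 0.25, edgeR adjusted p = 0.000121). Rgs16 was 0.403, 0.863 and 0.582 CPM in RC (log2 fold change 2.35 ± 0.24, edgeR adjusted p = 6.76e-06), with the first GRP+RC library barely above the highest RC library. Ccn1 was higher than in RC by 1.45 (edgeR adjusted p = 1.52e-06), Serpinb2 by 2.47 (edgeR adjusted p = 0.00626) and Fsd2 by 1.67 (edgeR adjusted p = 0.0221), all on the log2 scale, and the Fsd2 libraries of GRP+RC and RC overlapped. Without the replicate block edgeR called 0 genes (952 at an unadjusted p under 0.05), DESeq2 with the block called 13, and leaving out the libraries numbered 2 or 3 left 13 or 21.

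RC against the same mock libraries called 1 gene (0.00728%; 735 genes at an unadjusted p under 0.05), and 0 without the block or without the libraries numbered 3. The gene was Nr4a3, at 10.7, 10.6 and 6.22 CPM in RC, above all mock libraries (log2 fold change 1.17 ± 0.16, edgeR adjusted p = 0.0055). GRP+RC was higher still (against RC, log2 fold change 1.25 ± 0.13, edgeR adjusted p = 6.13e-06). For the 16 named genes called higher other than the mitochondrial genes, the log2 fold changes of RC against mock ran from 0.13 for Tnc to 1.55 for Rgs16. Egr3 was 13.2, 7.22 and 8.43 CPM in RC, above all mock libraries and overlapping GRP+RC, and did not reach the fold threshold between GRP+RC and RC (log2 fold change 0.64 ± 0.14, edgeR adjusted p = 0.00829). Gm28437 was also lower in RC than in mock by the adjusted p alone (log2 fold change -0.78, edgeR adjusted p = 0.0055).

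**Figure D4:**
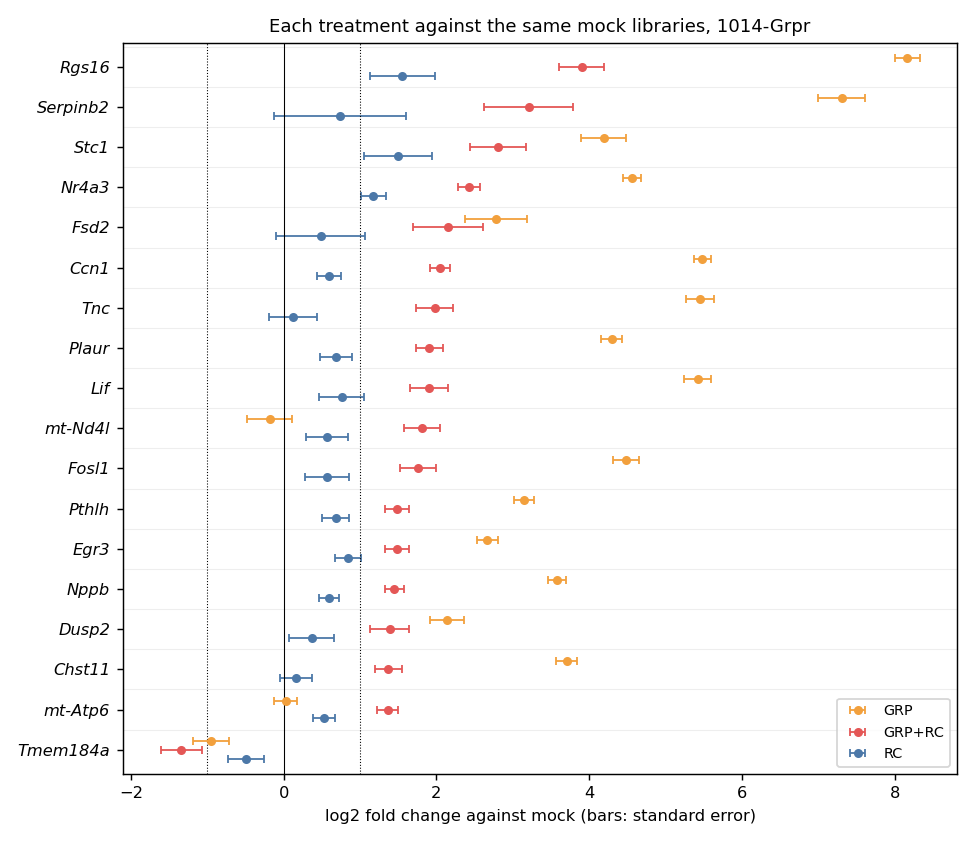
Log2 fold change against mock, with its standard error, of GRP, GRP+RC and RC in 1014-Grpr for 17 of the 18 named genes called higher and Tmem184a, all against the same mock libraries. Rgs16 lies at 8.16 with GRP, 3.90 with GRP+RC and 1.55 with RC, and mt-Nd4l and mt-Atp6 lie near 0 with GRP.

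GRP without the antagonist gives the response that RC was set against. GRP against mock called 474 genes higher and 164 lower (3.45% and 1.19%, 4.65% in all), and GRP+RC was lower than GRP in 269 genes and higher in 44 (1.96% and 0.32%, 2.28% in all). Ccn1 was 154, 382 and 170 CPM with GRP, above each GRP+RC library (for GRP+RC against GRP, log2 fold change -3.43, edgeR adjusted p = 5.67e-15). Rgs16 was 30.8, 102 and 47.4 CPM with GRP (log2 fold change -4.26, edgeR adjusted p = 5.55e-15). Lif was 60.1, 134 and 85.3 CPM with GRP (log2 fold change -3.52, edgeR adjusted p = 6.01e-12). In 14 of the 16 named genes other than the mitochondrial genes, every GRP+RC library was below every GRP library, beside 16.4% of all genes tested. The exceptions were Fsd2 (log2 fold change -0.63, edgeR adjusted p = 0.12) and Dusp2 (log2 fold change -0.74, edgeR adjusted p = 0.00486), whose libraries overlapped and which were not called.

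Some genes with a clear level under GRP were near the floor in GRP+RC. Xirp1, an actin-binding muscle protein, had 59, 278 and 113 counts with GRP and 1, 2 and 2 with GRP+RC. Cd244a, Lyve1 and the muscle factor Myod1 had at most 3 counts in any GRP+RC library. Inhba had 184, 515 and 706 counts with GRP.

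In the other direction, Kcnj13, a potassium channel, lay between mock and GRP. It was 44.1, 37.5 and 69.7 CPM in mock, 31.8, 18.9 and 34.6 CPM in GRP+RC and 13.1, 10.8 and 16.2 CPM in GRP. GRP+RC did not overlap with mock (log2 fold change -0.82 ± 0.08, edgeR adjusted p = 1.86e-06) or with GRP (log2 fold change 1.08 ± 0.09, edgeR adjusted p = 3.75e-08). Fam19a5 was higher than in GRP (log2 fold change 1.15 ± 0.20, edgeR adjusted p = 0.000129) and so was the phosphatase gene Ptprb (log2 fold change 1.23 ± 0.26, edgeR adjusted p = 0.000929).

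The 1014-Ctrl line asks whether the response needs the transfected receptor. GRP+RC against mock called 0 of 13755 genes there by edgeR (0%; 676 at an unadjusted p under 0.05). The mock library of replicate 2 went against its label, with 50.6 CPM of Grpr and 67.7 CPM of Ddx3y, where the other 1014-Ctrl libraries had at most 0.0347 CPM of Grpr. Leaving it out also called 0 of 13918 genes (947 at an unadjusted p under 0.05). Without it, 15 of the 18 named genes called higher could be tested in 1014-Ctrl, and their log2 fold changes lay between -0.32 for Tnc and 0.36 for Nr4a3.

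The difference between the lines was tested directly. The log2 fold change of GRP+RC against mock was larger in 1014-Grpr for 35 genes and smaller for 10, of 14204 (0.246% and 0.0704%, 0.317% in all), and without the doubtful library for 57 and 23 of 14404 (0.396% and 0.16%, 0.555% in all). Leaving out the libraries numbered 1 or 3 from both lines left 3 or 0 genes, and without the replicate block 1 gene was called. Leaving out number 1 or 3 kept the doubtful library, while leaving out number 2, which removes it, left more genes. Without the doubtful library, the difference was 2.12 ± 0.22 for Ccn1 (edgeR adjusted p = 5.82e-07), 2.08 ± 0.28 for Nr4a3 (edgeR adjusted p = 1.22e-05), 1.95 ± 0.29 for Plaur (edgeR adjusted p = 4.56e-05) and 2.30 ± 0.36 for Tnc (edgeR adjusted p = 8.30e-05). Rgs16 was too low to be tested within 1014-Ctrl, and its difference was not called (1.92 ± 2.32, edgeR adjusted p = 0.686). Of the 18 named genes called higher, 8 had a larger effect in 1014-Grpr with all libraries and 14 without the doubtful one, a count that rests on the libraries that chose these genes.

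The 1057 line is a melanoma line of a female mouse with the label Tyr::NRASQ61K/°; Cdkn2a-/-;Tyr::CreA/°;Cdh1dF/dF, and it expressed Grpr without transfection, at 243, 247 and 246 CPM in mock. GRP+RC against mock called 432 genes higher and 64 lower there, of 14195 (3.04% and 0.451%, 3.49% in all). These libraries are shared with none of 1014-Grpr. Of the 71 genes called higher in 1014-Grpr, 63 could be tested in 1057, where 33 (52.4%) were called higher and 0 lower. The 33 are 7.64% of the 432. Of the 14 called lower, 10 could be tested and 0 were called in either direction. Whether effects differ in size between the lines was not tested.

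The values of single genes in both lines stand side by side here. In 1057, Nr4a3 had a log2 fold change of 5.57 (edgeR adjusted p = 1.86e-18), beside 2.43 in 1014-Grpr. Stc1 had 4.68 (edgeR adjusted p = 1.86e-18), beside 2.80, and Ccn1 had 2.31 (edgeR adjusted p = 5.56e-10), beside 2.05. The value of Rgs16 was 1.62 (edgeR adjusted p = 5.07e-05), beside 3.90. Pthlh had -0.28 (edgeR adjusted p = 1.59e-06), a sign opposite to that of 1014-Grpr. The mitochondrial genes did not pass there, with mt-Atp6 at 0.32 (edgeR adjusted p = 0.192) and mt-Nd4l at -0.09 (edgeR adjusted p = 0.882). Rgs2, under the fold threshold in 1014-Grpr, had 4.04 (edgeR adjusted p = 4.87e-17).

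**Figure D5:**
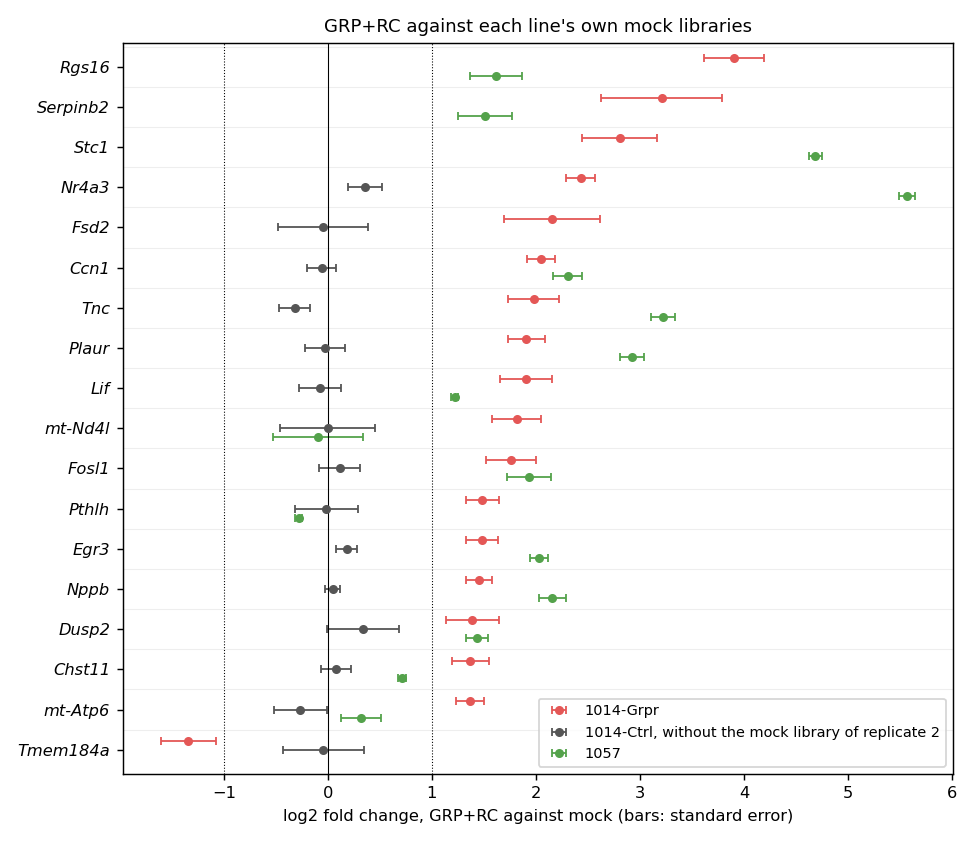
Log2 fold change of GRP+RC against the mock libraries of the same line, with its standard error, for 17 of the 18 named genes called higher and Tmem184a in 1014-Grpr, in 1014-Ctrl without its mock library of replicate 2 and in 1057, where a missing point means that the gene was not tested. The 1014-Ctrl points lie between -0.32 and 0.36, and 12 of the genes shown were called higher in 1057.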

How the data were processed

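Per the labels and the study's methods, stranded libraries of polyadenylated RNA were sequenced in pairs of reads. The authors mapped them with STAR on GRCm38.p5 (mm10) and deposited raw counts per gene and TPM values. The STAR version and strand setting are not given in the sources used here.

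The deposited counts of the 12 libraries of 1014-Grpr were fitted with edgeR 4.0.16 (filterByExpr, TMM factors, quasi-likelihood test), with the replicate number of the labels as a block. The rule that set this comparison fixed the block. The labels do not pair samples, but same-numbered libraries deviated together. For single genes in the fits, CPM is relative to the total of the tested genes scaled by the TMM factor. For Xist, Ddx3y, the cell type markers, the floor of 3 counts and Grpr in 1014-Ctrl, it is relative to the library total. Limits cover counting error only. DESeq2 1.42.0, and limma 3.58.1 on log2(TPM + 1), were alternatives. 1014-Ctrl and 1057 were fitted alike, and the difference between 1014-Grpr and 1014-Ctrl in 1 fit. Tested on simulated data for GRP+RC against mock (13730 genes), edgeR recovered 93% of 100 genes changed by 1.5 and 98% of 100 changed by 2.5 on the log2 scale. It made 2 false calls. For the difference between 1014-Grpr and 1014-Ctrl it recovered 72% and 84%, with 6 false calls. The simulated counts were drawn from edgeR's own fit, so they cannot show whether that fit suits the real data.

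Named are, of the called genes with a mean of at least 1 CPM in either group and 1 direction in all 3 pairs, the 18 higher and 10 lower with the largest fold (predicted genes only if over 5 of these places), up to 6 called members of each gene list and up to 3 others where fewer were called, Grpr, the study's score genes, and the 5 genes with the largest fold each way against RC and GRP. Members and lists were chosen with earlier results of these data known. Some genes picked by the rule are not reported here. Positions are from GENCODE M21 (GRCm38). Exon overlaps are stated for some genes only, and others named here also have them, such as Tnc, Stc1 and Kcnj13.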

Additional observations from a re-analysis of the deposited data

Results flagged for a closer look

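The effect of GRP+RC against mock differed between 1014-Grpr and 1014-Ctrl by a direct test of the difference (edgeR quasi-likelihood test, adjusted over 14204 genes): 35 genes had a larger and 10 a smaller effect in 1014-Grpr. The difference of the log2 fold changes was 2.62 for Nr4a3, 1.88 for Ccn1, 2.02 for Plaur, 1.78 for Lif, 1.45 for Egr3, 2.32 for Chst11 and 1.70 for mt-Atp6. Without the 1014-Ctrl mock library of replicate 2, which went against its label, these 7 genes, in the same order, had differences of 2.08, 2.12, 1.95, 1.98, 1.31, 1.29 and 1.64, all called.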

How the results depend on the processing

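For GRP+RC against mock in 1014-Grpr (85 genes called), the count was 26 with no replicate block, 32 by DESeq2, 31 by limma on log2(TPM + 1), 2379 by the adjusted p alone and 40 to 78 with 1 replicate left out. Against RC (32 genes) the same alternatives gave 0, 13, 9, 1228 and 13 to 24, and RC against mock (1 gene) gave 0 with no block and 0 to 1 with a replicate left out. Against GRP (313 genes), limma gave 134 and the adjusted p alone 5315. The difference between 1014-Grpr and 1014-Ctrl (45 genes) gave 1 with no block, 77 by DESeq2, 335 by the adjusted p alone, 80 without the 1014-Ctrl mock library of replicate 2 and 0 to 38 with a replicate left out. The cause was not tested. The other alternatives of these counts, and all those of GRP against mock and of 1057, stayed within 1.5 times, and 1014-Ctrl stayed at 0, also without that library, an alternative chosen after seeing the data.

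The naming rule picked 19 genes called against mock for a large fold, at least 1 CPM and 1 direction in all 3 pairs, which favours calls that last. All 19 were still called with RLE factors, with no filter, in the 6 libraries alone and without each replicate. Limma kept 15 of them, DESeq2 14 and the fit without the block 11. Fewer of all 85 called genes were kept: 55, 34 and 50 without replicate 1, 2 and 3. For the 85, the 6 libraries alone kept 67, DESeq2 32, limma 30 and the fit without the block 26. Over all named genes, 747 values kept direction and side of the threshold, 67 lost the call or the threshold, 4 gained it and 9 turned. Those that turned were near 0 or near the floor of counts: by limma mt-Co1 -0.0052 and mt-Nd4 -0.012, and over the left-out replicates Cd244a -2.12 to 2.56, Nmb -0.048 to 0.27, Tead4 -0.023 to 0.12, mt-Co1 -0.0026 to 0.057, mt-Nd4 -0.019 to 0.084 and Tcf4 -0.077 to 0.011 (log2 fold changes). Below about 1 CPM, counts limit what a fold can show.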
